A study of Mus musculus with 24 samples.

Results

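The comparison set 4 RNA-seq libraries of macrophages low in Siglec F from old mice given asbestos against 4 libraries of macrophages high in Siglec F from old naive mice. These were the 8 libraries, of 24 in the series, whose labels gave those groups, and all 13629 genes with enough counts were tested. Every mouse was of strain C57BL/6J, the old animals were more than 18 months of age, and the exposed groups were taken 28 days after asbestos. The naive cells had the labels old, naive and Siglec F-high, and the exposed cells the labels old, asbestos and Siglec F-low. Exposure and sort therefore differed together between these groups, and a difference due to asbestos cannot be told apart from one due to the sort. A group in between, old asbestos Siglec F-high, was used with 3 of its 4 libraries to give each gene's level in exposed cells of the other sort. Here "naive", "exposed F-high" and "F-low" stand for these 3 groups of old mice. The series text calls the sorted populations resident and monocyte-derived alveolar macrophages. The labels do not say whether the libraries of a group came from separate animals. The p-values rest on the spread within groups, pooled over the 22 libraries of the fit, and that spread may be technical. In bulk libraries of sorted cells, fewer cells of a type and less RNA per cell cannot be told apart.

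Alveolar macrophages that settle around birth keep themselves in the air spaces, clear surfactant and stand high in the lectin Siglec F. Their identity depends on GM-CSF and on the nuclear receptor PPARgamma. After lung injury, monocytes enter from the blood, become alveolar macrophages that are at first low in Siglec F, and make growth factors and proteases that act on fibroblasts and matrix. Asbestos fibres, which lodge at the ends of the airways, are a standard way to raise such an injury in mice.

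The 8 libraries held 14566720 to 17462808 counts on 17628 to 18495 genes, with 0.249 to 0.503% of counts on rRNA-related genes. Each correlated with the rest of its group at 0.987 to 0.991 in log2 CPM (counts scaled to a common library size) across genes, which are not independent replicates. Libraries of both groups differed from their own replicates by more than sampling noise, so none was a copy of another. The fit used 22 libraries and left out 2 outlying exposed F-high libraries of the series, 1 old (3894699 counts, 41.4% of them rRNA-related) and 1 young (12528 genes with a count). On the first principal component of the 11 old libraries, which held 46.5% of the variance, the naive, exposed F-high and F-low libraries formed separate groups in that order.

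Siglecf, the gene of the sorted surface protein, checked the labels. It had 524, 538, 543 and 519.8 CPM in naive replicates 1 to 4, 484, 502 and 502 in exposed F-high replicates 1, 2 and 4, and 234, 156, 169.6 and 176 in F-low replicates 1 to 4. The F-low libraries were all below the others, with a log2 fold change of -1.53 ± 0.10 (SE) and an adjusted p of 9.18e-11. Since the cells were sorted on this protein, that difference is a check and not a result. Siglece, a related inhibitory receptor, was lower by a similar step, at 43.6 ± 8.85 CPM (SD, n = 4) in naive and 14.7 ± 2.48 in F-low libraries. Siglec1 (log2 -0.31) was lower, a call lost without F-low replicates 1, 2, 3 or 4 or naive replicates 3 or 4 (adjusted p = 0.0597 to 0.153), and Cd33 (log2 0.54) higher, and the other 3 tested members of the family were not called.

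In all, 4181 of the 13629 genes were called at an adjusted p under 0.05, or 30.7%. Of these, 2162 were higher in the F-low libraries (15.9% of genes tested) and 2019 lower (14.8%). The large changes were mostly upward: 741 genes were called and at least 2-fold higher (5.44%) against 307 at least 2-fold lower (2.25%), and 338 at least 4-fold higher (2.48%) against 39 at least 4-fold lower (0.286%). In 2090 genes (15.3%) all F-low libraries were above all naive libraries in CPM, and in 1952 genes (14.3%) all were below. The median log2 fold change over all tested genes was -0.02 and the median SE 0.13. With the 2 outlying libraries put back, 1418 genes were called, 893 higher and 525 lower, each of them a call of the fit without them. With counts scaled by library size alone, an alternative added after the data were seen, the median of all genes moved to -0.14 and 31.3% of the 4986 calls were higher, against 51.7% of the 4181. Log2 values near 0 are read relative to that shift.

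**Figure D1:**
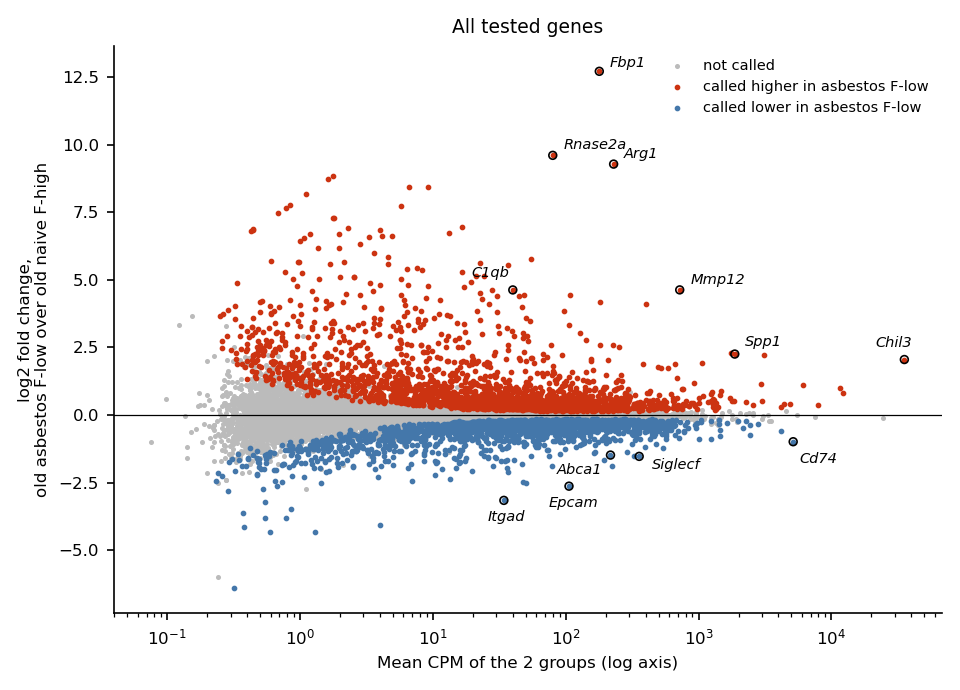
Each point is 1 of the 13629 tested genes, with the mean CPM of the naive and F-low groups on a log axis and the log2 fold change on the vertical axis. Called genes are coloured by direction. The points reach further up than down, with Fbp1, Rnase2a and Arg1 the highest of the labelled genes and Itgad and Epcam the lowest. The values of Fbp1 and Rnase2a rest on 3 and 13 counts in the naive group.

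The smallest p of all belonged to Arg1, which encodes arginase 1, an enzyme that splits arginine into ornithine and urea. Arg1 (chromosome 10, 24915221 to 24927484, minus strand, GRCm38) had 0.496, 1.01, 0.821 and 0.566 CPM in the naive libraries, 26, 31.5 and 27.5 in the exposed F-high ones and 352, 417, 565 and 499.9 in the F-low ones. No library of a group reached the range of the next group. The fit put F-low at 623-fold naive, a log2 fold change of 9.28 ± 0.31 with an adjusted p of 2.02e-15. Fbp1, an enzyme of gluconeogenesis, was near absence in naive cells, with 3 counts in the 4 naive libraries together. It reached 163, 161 and 92.8 CPM in the exposed F-high libraries and 418, 341, 343 and 330.3 in the F-low libraries. No fold change is given for it, as the naive counts are at the detection floor of 3 counts. Igfbp6, an insulin-like growth factor binding protein, had 2 counts in the naive libraries and 13.1 ± 1.74 CPM in the F-low ones. Rnase2a, a secreted ribonuclease with close relatives whose reads may be shared, had 0.193 ± 0.282 CPM in naive and 159.7 ± 27.5 in F-low libraries (log2 9.61, or 11.18 without naive replicate 2). Rbp4, the plasma carrier of retinol, rose from 0.253 ± 0.324 to 32.6 ± 16 CPM (log2 6.94, or 8.22 without naive replicate 2).

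The 3 genes of the C1q chains lie side by side on the minus strand of chromosome 4 (GRCm38), C1qb at 136880129 to 136886187, C1qc at 136889804 to 136893065 and C1qa at 136895917 to 136898803. Their products form the recognition unit of the classical complement pathway. C1qb had 2.98, 4.65, 3.11 and 1.64 CPM in the naive libraries, 4.3, 4.68 and 5.2 in exposed F-high libraries and 86.9, 70.1, 76.7 and 73.9 in F-low libraries. The F-low libraries thus stood apart from both Siglec F-high groups, which overlapped each other. C1qa (log2 4.40 ± 0.20) and C1qc (4.52 ± 0.22) rose by similar amounts. C3ar1, the receptor of the complement fragment C3a, rose from 1.25 ± 0.221 to 33.2 ± 7.19 CPM. C5ar1, which binds C5a, went the other way, from 417 ± 27.8 to 163 ± 77.8. Of the 15 complement genes tested, 8 were called higher and 2 lower, with a median log2 fold change of 0.57. The receptor subunit Itgb2, C3 and C4b were also called higher, the call of C3 being lost without F-low replicates 1, 2 or 4 or naive replicates 2 or 3 (adjusted p = 0.0564 to 0.0928).

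Other genes of small p were the metalloprotease gene Adam8 (5.44 ± 0.154 to 87.9 ± 11.3 CPM), Mfge8 and the kinase gene Matk (log2 3.40). Among the genes that were lower, the smallest p belonged to Acot1, a thioesterase of fatty acid metabolism, at 66.5, 61.8, 62.6 and 57.9 CPM in naive, 42.3, 39.2 and 34.5 in exposed F-high and 22.1, 22.4, 20.4 and 14.4 in F-low libraries. The groups again did not overlap and stood in that order. Pilra, an inhibitory receptor, went from 241 ± 10.7 to 93.5 ± 14.3 CPM and the matrix protein gene Matn2 from 165 ± 10.8 to 73.4 ± 11.4. Mylip, which encodes a ubiquitin ligase of lipid uptake, was lower (log2 -1.51 ± 0.11). The genes Gpr155, Cd101, Vstm2a and Rtl6 had log2 fold changes of -1.43, -1.70, -1.28 and -1.71. The deepest falls among genes of at least 10 CPM in each naive library were those of the integrin chain gene Itgad (-3.16 ± 0.38), Epcam (-2.63 ± 0.29), Trp53i11 (-2.52 ± 0.25), Acap1 (-2.46 ± 0.19) and the protease gene Htra3 (-2.36 ± 0.27). Epcam encodes an adhesion protein best known from epithelium. Its CPM was 188, 196, 181 and 165 in naive, 88.7, 109 and 75.8 in exposed F-high and 41.6, 31.1, 30.7 and 14.2 in F-low libraries.

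**Figure D2:**
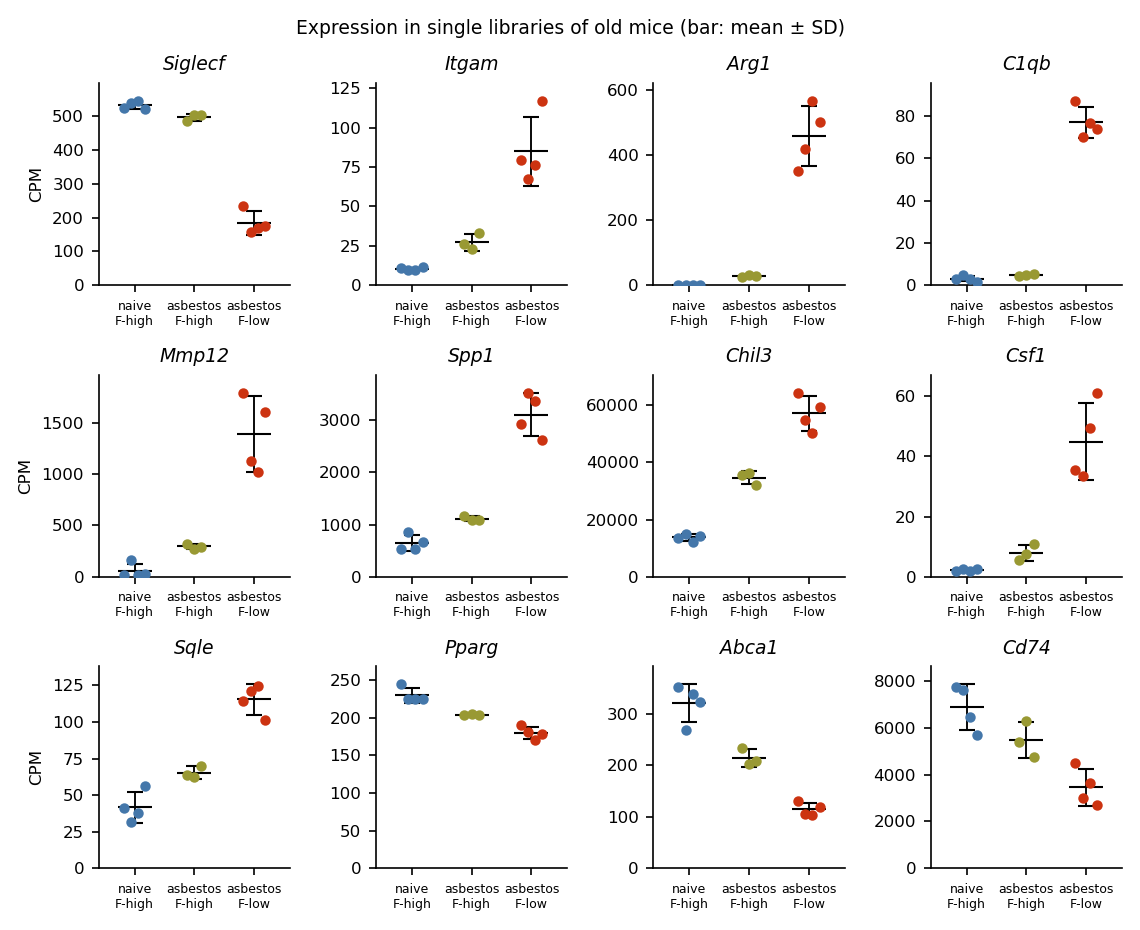
CPM of 12 genes in single libraries of old mice: 4 naive, 3 exposed F-high and 4 F-low, with lines at the mean ± SD and every axis starting at 0. Siglecf and C1qb set the F-low libraries apart, while Itgam, Sqle, Chil3 and Abca1 show the exposed F-high libraries between the others.

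Genes that mark resident alveolar macrophages did not move as a block. Of 31 such genes tested, 11 were called higher and 10 lower, with a median log2 fold change of 0.07. Lower were the cholesterol exporter Abcg1, given with the lipid genes, Fabp1, a fatty acid binding protein (124 ± 18.3 to 33.2 ± 15.4 CPM), the eosinophil-type ribonuclease Ear1 (482 ± 35.7 to 169.5 ± 55.8, with paralogs that may share reads), the lipid droplet protein Cidec (429.6 ± 33.9 to 202 ± 67.6) and Spint1 (log2 -0.99). Pparg, the receptor that sets the fate of these cells, had 244, 225, 225 and 224 CPM in naive libraries, 203, 205 and 204 in exposed F-high and 190.1, 181, 170.3 and 178 in F-low ones. Its fall was small, at log2 -0.35 ± 0.09 and an adjusted p of 0.00533, yet the groups did not overlap. It was not called with all 24 libraries in the fit (adjusted p = 0.071). Higher were Fabp5 (65.1 ± 12.6 to 392 ± 65.1 CPM), Fabp4 (62.8 ± 5.97 to 249 ± 65), the fatty acid translocase Cd36 (log2 1.37) and the chitinase-like protein Chil3. Chil3 had 13591, 14967, 12281 and 14256 CPM in naive and 64227, 54878, 50064 and 59279.5 in F-low libraries, and its reads can be shared with its paralog Chil4. Car4, a membrane carbonic anhydrase, rose from 509 ± 209 to 1003 ± 123 CPM (adjusted p = 0.00146). The scavenger receptor Marco had 209, 119, 180.5 and 364 CPM in naive and 325, 649, 315 and 266 in F-low libraries, ranges that overlap, and was not called (log2 0.83 ± 0.42, adjusted p = 0.138). F-low replicate 2 stood far above the rest of its group, and Marco was called higher without naive replicate 4 (adjusted p = 0.0458) and without the filter on low counts (0.0263).

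Genes of monocytes and young macrophages were called higher in 9 of 26 tested members and lower in 3, with a median of 0.30. Itgam, the integrin chain CD11b, had 10.7, 9.67, 9.85 and 11.3 CPM in naive, 26, 22.8 and 33.2 in exposed F-high and 79.7, 67.1, 76.4 and 117 in F-low libraries, with no overlap between any of the groups. Fn1, fibronectin, rose from 1087 ± 469 to 5125 ± 741 CPM. Cx3cr1, the fractalkine receptor, had only 4.01 ± 0.562 and 6.83 ± 2.47 CPM, and its rise of log2 0.77 ± 0.24 had an adjusted p of 0.017. The call was lost without F-low replicate 1 or naive replicate 4 (adjusted p = 0.0502 to 0.117). The blood monocyte genes Ccr2 (log2 0.32), Ly6c2 (0.83) and Plac8 (0.19) were not called, and Fcgr1, Adgre1 and Treml4 were lower. A list of 35 macrophage transcription factors also held the enzyme gene Car4. Of its members, 9 were higher and 8 lower, beside 15.9% and 14.8% of all tested genes. The called members included Irf4 (log2 1.82) and Ahr (1.58) upward and Tcf7l2 (-0.43), Egr1 (-1.68) and Klf2 (-0.72) downward.

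Csf1, the macrophage growth factor M-CSF, had 1.99, 2.74, 1.88 and 2.64 CPM in naive, 5.59, 7.54 and 10.9 in exposed F-high and 35.6, 33.5, 49.6 and 61.1 in F-low libraries, 19.4-fold higher in the last than the first, without overlap between any groups. Its receptor gene Csf1r differed far less, from 407 ± 47 to 527 ± 16.5 CPM. The GM-CSF receptor genes Csf2ra (log2 0.20) and Csf2rb (0.05) were not called, and the G-CSF receptor gene Csf3r was lower (-1.29). Over the 13 tested members of the axis, 3 were called higher and 3 lower, beside 15.9% and 14.8% of all tested genes.

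Ligands that act on fibroblasts and matrix were called higher in 13 of 28 tested members and lower in 5, with a median log2 fold change of 0.60. Pdgfa, a growth factor for fibroblasts, had 10 counts in the naive libraries together and rose from 0.15 ± 0.113 to 9.04 ± 2.18 CPM. Hbegf, an EGF receptor ligand, went from 0.644 ± 0.359 to 17.8 ± 10.2 CPM, and Igf1, insulin-like growth factor 1, from 35.6 ± 3.84 to 247 ± 8.39. Mfge8, which bridges dying cells to phagocytes and binds collagen, had 41.8, 40.6, 38.3 and 56.5 CPM in naive, 201, 186 and 258 in exposed F-high and 789, 547, 690.1 and 1000.3 in F-low libraries. Tgfb1, the prototype of the fibrosis factors, was not called at log2 0.02 ± 0.05. The ligands Ereg (log2 -1.96), Tgfb2 (-1.38), Fgf1 (-1.29), Pdgfc (-0.73) and Tnf, given with the inflammatory genes, were lower.

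Of 18 extracellular matrix and basement membrane genes, 7 were higher, at a median of 1.69, among them Nid1 (log2 1.94) and Lamc1 (0.84). Genes described in macrophages of scarred tissue were called higher in 18 of 26 tested members and lower in 2, the median being 1.20. Spp1, osteopontin, had 539.8, 863, 537 and 659 CPM in naive, 1168, 1081 and 1083 in exposed F-high and 2912, 3509.5, 3370.1 and 2607 in F-low libraries. The groups did not overlap. Gpnmb, a glycoprotein of lysosome-rich macrophages, rose from 449 ± 109 to 1685 ± 518 CPM and Trem2, a lipid-sensing receptor, from 77.7 ± 10.2 to 246 ± 32.8. Apoe, the lipid carrier apolipoprotein E, had 82.7 ± 16.6 CPM in naive, 67.4 ± 18.8 in exposed F-high (n = 3) and 336 ± 55 in F-low libraries, with the first 2 groups overlapping. Syngr1 (log2 5.63) moved furthest upward, and Apoc1 (-1.96) and Pltp (-0.94) were the lower members.

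Of 17 metalloproteinase, ADAM and inhibitor genes tested, 12 were called higher, with a median of 0.88. Members near the floor in naive libraries, such as Mmp13 and Timp1, can pass the filter on low counts through their higher groups. They add little weight to this count. Mmp12, the macrophage elastase, had 13.4, 165, 18.4 and 27.1 CPM in naive, 323, 275 and 290.2 in exposed F-high and 1792, 1133, 1023 and 1604 in F-low libraries. Naive replicate 2 stood far above the other naive libraries but below every exposed one. The fold change was 24.7 (log2 4.63 ± 0.54, adjusted p = 6.51e-07), and log2 6.14 without naive replicate 2. Mmp14, a membrane-bound collagenase, rose from 1.25 ± 0.16 to 37.5 ± 10.6 CPM, the collagenase gene Mmp13 from 0.184 ± 0.237 to 9.02 ± 4.95 (log2 5.57, or 6.68 without naive replicate 1), and the metalloproteinase inhibitor gene Timp1 from 0.291 ± 0.12 to 12.5 ± 2.77. Mmp12 and Mmp13, which lie close together on chromosome 9, were the 2 of 12 members with a promoter in the RefSeq table whose 250 bases before the start held the AP-1 letters TGANTCA on either strand, found in 6.75% of 32851 mouse promoters. Of the 10 members without these letters, 7 were called higher too. The stretches of Mmp12 and Mmp13, shown because both genes rose, end at the base before the RefSeq transcript start (GRCm38.p6, plus strand). The fixed letters of the match are in capitals:
Mmp12 (chr9:7347290-7347373): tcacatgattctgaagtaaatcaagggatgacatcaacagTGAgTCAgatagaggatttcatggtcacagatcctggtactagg
Mmp13 (chr9:7272439-7272513): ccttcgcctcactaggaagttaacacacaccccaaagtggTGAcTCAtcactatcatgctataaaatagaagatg
A match in a promoter is a description of its letters and was not tested as a binding site.

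Chemokine genes were called higher in 9 of 22 tested members and lower in 1. Ccl24, an attractant of eosinophils, had 16 counts in the naive libraries together (0.242 ± 0.155 CPM) and 25.2, 37.7, 13.7 and 28.9 CPM in the F-low ones. Ccl17, a ligand of CCR4 on T cells, rose from 1.53 ± 1.26 to 71.6 ± 11.8 CPM (log2 5.54, or 6.31 without naive replicate 2), and Ccl9 from 75.7 ± 37.6 to 429 ± 71.6. Ccl2, the main attractant of monocytes, was not called (log2 0.17 ± 0.20), and the interferon-induced Cxcl9 was lower (-1.34). Of 14 chemoattractant receptors, 4 were higher and 4 lower, beside 15.9% and 14.8% of all tested genes. Fpr1 (-0.77) was among the lower ones. A list of arginase and alternative activation, the state linked to IL-4 and IL-13, had 13 of 22 members called higher and 1 lower, Flt1. It holds Arg1, Fbp1, Chil3, Ccl17, Ccl24 and Irf4, and a signal of these cytokines was not tested. Retnla, a secreted product of cells in that state, went from 2.17 ± 1.11 to 53.7 ± 6.95 CPM. The scavenger receptor Msr1 went from 13.7 ± 8.02 to 91.1 ± 20.3. Mrc1, the mannose receptor, was not called (log2 0.09 ± 0.07). Il10 was not called either (-0.08).

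Of 16 tested genes of antigen presentation by MHC class II, 10 were called lower and 2 higher, with a median of -0.82, and in 9 of the 10 lower ones the F-low libraries were all below the naive libraries. Cd74, the chain that guides class II molecules, had 7716, 7609, 6456 and 5666 CPM in naive, 5382, 6272 and 4737 in exposed F-high and 4485, 3011, 3629 and 2709 in F-low libraries. The class II chain H2-Aa fell from 1609.5 ± 242 to 875 ± 199 CPM and Ciita, the coactivator of these genes, from 83.4 ± 4.27 to 36.7 ± 7.53. The members called higher, Ctss and Ifi30, encode a protease and a reductase of the endosome. With all 24 libraries or with library size scaling alone neither was called higher, and the call of Ctss was lost without F-low replicates 1 or 3 or naive replicates 3 or 4 (adjusted p = 0.0698 to 0.128). B cells also make class II molecules, and 10 of 15 B cell markers were lower as well, as given with the other cell types. Their part in the class II result was not tested.

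Inflammatory genes were split, with 4 of 18 tested called higher and 4 lower, beside 15.9% and 14.8% of all tested genes. Il1b rose from 107 ± 45.6 to 296 ± 77.4 CPM and Ptgs2 from 4.55 ± 2.32 to 12.1 ± 3.97. Il18, Nlrp3, Casp1 and Tnf were lower, the first from 180.5 ± 11.3 to 94.6 ± 9.63 CPM. The call of Tnf (log2 -0.71) was lost without F-low replicates 3 or 4 or naive replicates 1 or 2 (adjusted p = 0.0587 to 0.184), and that of Casp1 (log2 -0.28) was lost without F-low replicates 1, 2 or 3 or naive replicates 1, 2 or 4 (adjusted p = 0.0545 to 0.106). Of 19 eicosanoid genes, 9 were higher and 4 lower. Ptgs1, the first enzyme of prostaglandin synthesis, had 7.71 ± 1.27 CPM in naive, 30.7 ± 2.06 in exposed F-high and 92.1 ± 14.1 in F-low libraries, while Alox5, the first enzyme of leukotriene synthesis, fell from 559 ± 37.6 to 328 ± 40.4 CPM and its partner Alox5ap was lower too (log2 -0.52). Pla2g7, which breaks down platelet-activating factor, rose by log2 3.28 ± 0.23.

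**Figure D3:**
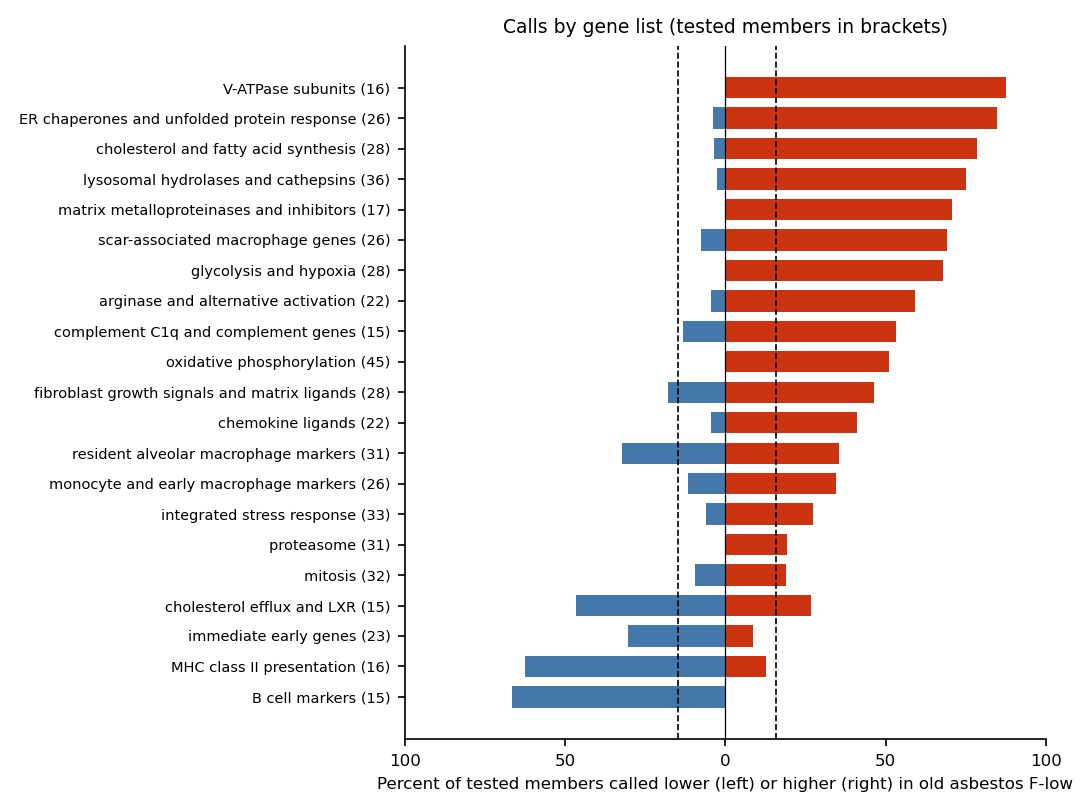
Percent of the tested members of 21 gene lists called lower (left, blue) or higher (right, red) in F-low libraries. The dashed lines mark the share over all tested genes, 14.8% lower and 15.9% higher. V-ATPase, ER, cholesterol and lysosome genes lie furthest to the right, and MHC class II genes and B cell markers furthest to the left.

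Of 36 hydrolases, cathepsins and other lysosomal genes tested, 27 were called higher and 1 lower, with a median log2 fold change of 0.44. In the fit of all 24 libraries, 15 were called higher. Ctsk, a cathepsin that digests collagen and elastin, had 481, 539, 623 and 723 CPM in naive, 1415, 1268 and 1761 in exposed F-high and 3022, 2238, 2604 and 3799 in F-low libraries, again without overlap. Ctsl rose from 287 ± 38.6 to 1051 ± 117 CPM, the asparagine endopeptidase Lgmn from 243 ± 2.67 to 801 ± 91.7, and Ctsb from 1846 ± 122 to 4074 ± 531. The lower member was Ctsf (log2 -0.38), a call lost without F-low replicates 1 or 4 or naive replicates 1, 2 or 3 (adjusted p = 0.0574 to 0.136). The proton pump that acidifies lysosomes had 14 of 16 subunit genes higher, within a narrow range of log2 0.09 to 0.76 over all 16. Of these, 4 were called with all 24 libraries. Of the transcription factors that drive lysosomal genes, Mitf was higher (0.33), a call lost without F-low replicates 1 or 4 or naive replicates 1, 2 or 3 (adjusted p = 0.0574 to 0.107), and Tfeb (0.16), Tfe3 (-0.02) and Tfec (-0.08) were not called.

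The CLEAR element, at its strict palindrome TCACGTGA, is the binding site of those factors. It occurred within 250 bases before the start in 0.785% of all promoters and in 4 of 27 lysosomal genes with a promoter in the table, Gla, Ctsd, Ctsa and Mcoln1. All 4 were called higher, and of the other 23 genes 19 were. Gla, alpha-galactosidase A, carried it 2 times and went from 79.8 ± 4.55 to 161 ± 17.5 CPM. Whether these factors bind or regulate the genes here was not tested. The promoters of 3 enzymes among the 4 are shown (GRCm38.p6, read in the direction of the gene, CLEAR letters in capitals):
Gla (chrX:134601153-134601255, minus strand): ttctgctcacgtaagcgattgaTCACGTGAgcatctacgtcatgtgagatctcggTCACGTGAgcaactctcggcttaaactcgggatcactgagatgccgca
Ctsd (chr7:142387879-142387966, minus strand): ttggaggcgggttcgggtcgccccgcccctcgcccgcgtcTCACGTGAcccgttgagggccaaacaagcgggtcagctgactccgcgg
Ctsa (chr2:164833720-164833772, plus strand): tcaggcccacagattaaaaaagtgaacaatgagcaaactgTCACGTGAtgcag
Ctsd, cathepsin D, rose from 8941 ± 358 to 15578 ± 1577 CPM, and Ctsa, the protective protein of other lysosomal enzymes, by log2 0.43 ± 0.07.

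Genes of cholesterol and fatty acid synthesis were called higher in 22 of 28 tested members and lower in 1, at a median of 0.84. Every member called higher had all F-low libraries above all naive ones. The enzymes of the sterol pathway led: Sqle, squalene epoxidase, had 41, 31.7, 37.8 and 56.5 CPM in naive, 63.5, 62.1 and 70.2 in exposed F-high and 114, 121, 125 and 101 in F-low libraries. Fdps, which makes farnesyl diphosphate, rose from 30.1 ± 5.42 to 77.8 ± 2.45 CPM. The fatty acid branch moved less, with Fasn higher at log2 0.47, Acaca (0.08) and Acly (-0.05) not called and Scd1 lower (-0.53), a call lost without F-low replicates 2 or 3 or naive replicates 1 or 4 (adjusted p = 0.0514 to 0.0942). Hmgcs1 (log2 0.92 ± 0.09), an early enzyme of the sterol pathway, was the only one of 19 members with a promoter in the table to hold the sterol element TCACNCCAC, found in 1.05% of all promoters. Of the 18 members without this element, 14 were called higher too. The element lies in this stretch (chr13:119690174-119690262, plus strand, GRCm38.p6), the fixed letters in capitals:
Hmgcs1: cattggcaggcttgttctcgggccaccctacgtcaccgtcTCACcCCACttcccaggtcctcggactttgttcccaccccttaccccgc
Of the genes of cholesterol export, Abca1, which passes cholesterol to lipid-poor apolipoprotein, had 351, 268, 338 and 324 CPM in naive, 233, 202 and 207 in exposed F-high and 131, 106, 103 and 118 in F-low libraries. Abcg1, which exports cholesterol to high-density lipoprotein particles, fell from 3039 ± 161 to 1842 ± 144 CPM. Of 15 genes of cholesterol efflux and of the oxysterol receptor LXR, 7 were lower, among them Mylip, Apoc1 and Pltp, and 4 higher, namely Apoe, Ch25h (log2 2.21), Soat1 and Nr1h3. Abca1 and Apoe, both known targets of LXR, thus lay on opposite sides of 0. Of 30 genes of lipid uptake, storage and oxidation, 10 were higher and 6 lower, the higher ones including Mgll (log2 0.81) and the lower ones Ehhadh (-0.70).

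Chaperones and enzymes of the endoplasmic reticulum (ER) were called higher in 22 of 26 members and lower in 1, with a median of 0.45. With all 24 libraries, 9 were called higher. Hspa5, the chief chaperone of the ER, had 937, 1029.7, 723 and 895 CPM in naive, 1045, 1110.3 and 1249.9 in exposed F-high and 1577, 1379, 1682 and 1828 in F-low libraries, a log2 fold change of 0.85 ± 0.11 with an adjusted p of 1.39e-06. Hyou1, Manf and Sdf2l1 rose by log2 0.80, 0.81 and 0.84. The lower member was Xbp1, a transcription factor of the same response, whose counts do not separate its spliced from its unspliced form: 449 ± 16.5 CPM in naive and 335 ± 15.9 in F-low libraries.

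The ER stress element, CCAAT and CCACG set 9 bases apart, stood within 250 bases before the start of 37 of 32851 mouse promoters, or 0.113%. It stood in 9 of the 22 ER genes with a promoter in the table (40.9%), all 9 called higher, and of the other 13 genes 10 were. Both strands were searched. The 37 are promoters, while the 9 are genes with the letters in any of their promoters. Of the 9 genes, 5 are shown because the letters are rare among all promoters (GRCm38.p6, 5' to 3' in the direction of the gene). The fixed letters are in capitals, parted by a spacer of 9 bases:
Hspa5 (chr2:34771985-34772083, plus strand): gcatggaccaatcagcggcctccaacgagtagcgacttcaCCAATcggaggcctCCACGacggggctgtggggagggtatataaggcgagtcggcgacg
Hsp90b1 (chr10:86705493-86705694, minus strand): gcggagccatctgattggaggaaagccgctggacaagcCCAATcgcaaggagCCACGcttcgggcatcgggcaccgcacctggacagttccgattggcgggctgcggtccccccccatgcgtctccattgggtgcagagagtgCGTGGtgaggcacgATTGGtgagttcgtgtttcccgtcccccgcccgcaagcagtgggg
Creld2 (chr15:88819480-88819578, plus strand): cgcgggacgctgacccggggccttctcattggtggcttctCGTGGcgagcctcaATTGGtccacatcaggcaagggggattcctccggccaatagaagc
Dnajc3 (chr14:118937787-118937885, plus strand): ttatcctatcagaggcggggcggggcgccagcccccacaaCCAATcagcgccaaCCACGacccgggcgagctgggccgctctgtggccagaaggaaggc
Derl3 (chr10:75893202-75893300, plus strand): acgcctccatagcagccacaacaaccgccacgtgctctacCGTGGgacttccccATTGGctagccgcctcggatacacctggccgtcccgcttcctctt
Hspa5 and Dnajc3 (log2 0.58 ± 0.07) carry the element in the direction of the gene, Creld2 (0.71 ± 0.10) and Derl3 (1.82 ± 0.33) in the other, and Hsp90b1 (0.46 ± 0.08) in both.

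**Figure D4:**
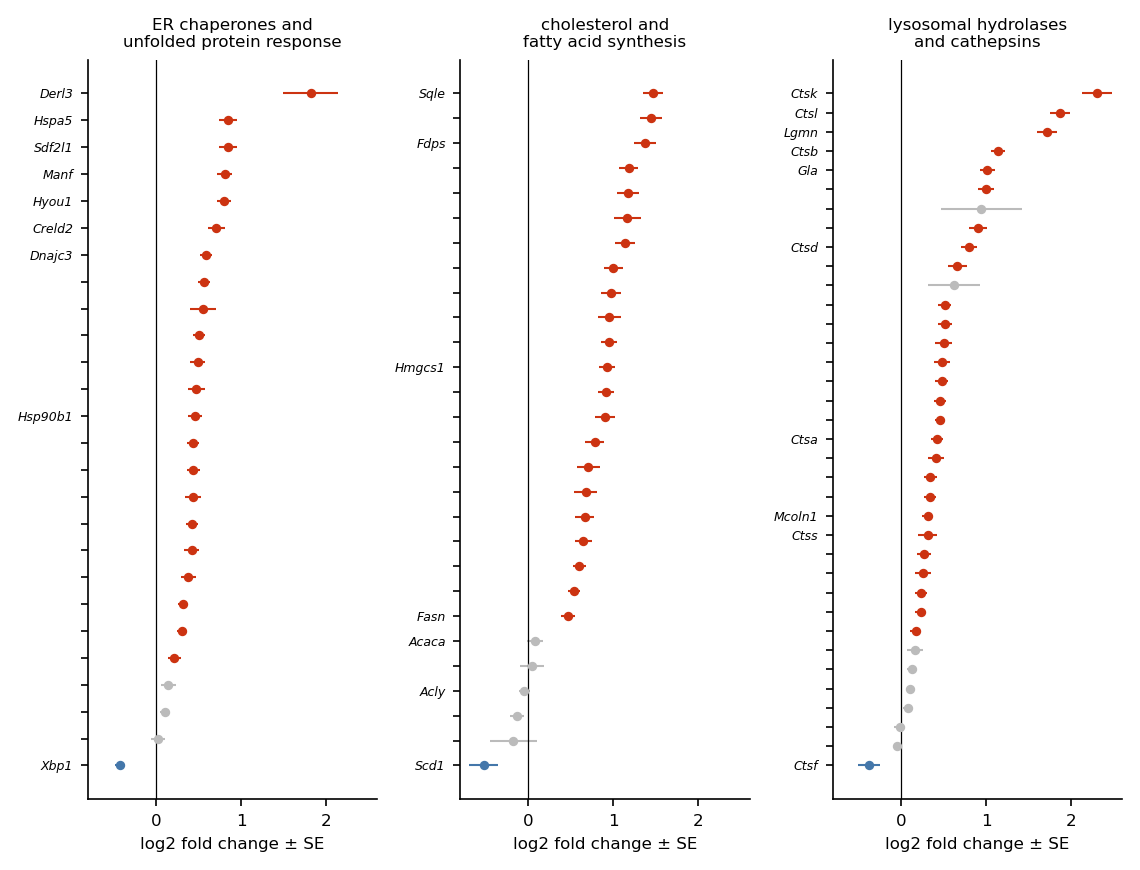
Log2 fold change ± SE of each tested member of 3 lists, red for called higher, blue for called lower and grey for not called, with a label for each member named in the text. All but a few members lie to the right of 0, with Xbp1, Scd1 and Ctsf as the called exceptions on the left.

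The integrated stress response lowers translation and raises the factor ATF4. Of its 33 tested genes, 9 were higher and 2 lower, the median being 0.10. Atf4 had 213 ± 33.9 and 211 ± 7.33 CPM (log2 -0.02 ± 0.10, adjusted p = 0.928), and Ddit3, its proapoptotic target CHOP, 11.8 ± 3.65 and 16.4 ± 4.25 CPM (log2 0.48 ± 0.20, adjusted p = 0.0728), neither called. Ddit3 was called higher without F-low replicate 2 or naive replicate 1 (adjusted p = 0.00833 to 0.0372), by limma voom (0.0362) and without the filter on low counts (0.0391). ATF4 protein is set by translation, which these counts do not show. Members that were called higher were the cystine carrier gene Slc7a11 (log2 2.12), the asparagine synthetase gene Asns (1.25), Trib3 (1.05), Psat1 (0.83), Atf5 (0.81), Mthfd2, Wars, Ppp1r15a and Aars, that of Ppp1r15a lost without F-low replicate 4 or naive replicate 3 (adjusted p = 0.0656 to 0.0746). Cytosolic heat shock genes had 1 of 17 higher, Bag3, and 4 lower, among them Hspa1b (log2 -1.51), whose call was lost by limma voom (adjusted p = 0.157). Of 31 proteasome subunits, 6 were called higher, a share near the 15.9% of all tested genes, led by Psmd8 (0.79) and Psmb6 (0.51), with a median of 0.14. With library size scaling alone 2 were called, and with all 24 libraries 1. Of the 5 immunoproteasome genes, 0 were called by edgeR, 0 by DESeq2, 0 by limma and 0 at an unadjusted p under 0.05, and their log2 values ran from -0.19 to -0.03.

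Of 28 genes of glycolysis and hypoxia, 19 were higher, including Hk3, a hexokinase (48.1 ± 6.49 to 129 ± 17.7 CPM), Pgam1 (log2 1.04) and the glucose carrier gene Slc2a1 (39.2 ± 5.76 to 78 ± 13.9). Of 45 subunits of oxidative phosphorylation, 23 were higher, at a median of 0.28. Cyc1 (log2 0.59), Cycs (0.61) and Cox8a (0.71) were among them. In the lists of metalloproteinases, V-ATPase subunits, proteasome subunits, glycolysis and oxidative phosphorylation, 0 genes were called lower by edgeR, 0 by DESeq2, 0 by limma and 0 at an unadjusted p under 0.05. With library size scaling alone 14 glycolysis genes and 13 respiratory subunits were called higher and 1 of each lower, and with all 24 libraries 8 and 2 were higher. Of 33 genes of the NRF2 antioxidant response and of iron handling, 12 were higher and 6 lower, with a median of 0.13, beside 15.9% and 14.8% of all tested genes. In the fit of all 24 libraries 6 were called higher and the 6 lower calls were lost, and with library size scaling alone 8 were higher and 10 lower. The higher members included Slc11a1, the metal pump NRAMP1 of phagosomes (9.48 ± 2.03 to 72.1 ± 16.5 CPM), and Tfrc, the transferrin receptor, which had 19.7, 20.9, 25.6 and 16.6 CPM in naive, 19.8, 21.9 and 25.3 in exposed F-high and 54.7, 59.9, 102 and 141 in F-low libraries. Only the F-low libraries were high in Tfrc. Slc40a1, the iron exporter ferroportin, was lower (log2 -0.80), a call lost without F-low replicates 2 or 3 (adjusted p = 0.0539 to 0.0557).

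Few genes of the cell cycle were called. Of 32 mitosis genes 6 were higher and 3 lower, and of 35 replication genes 3 were higher and 2 lower, the shares of higher calls being near or below that of all genes. Plk1, a mitotic kinase, rose by log2 0.76 ± 0.16, while Top2a (0.02 ± 0.10) was not called. Of 15 inhibitors of the cell cycle and senescence genes, 6 were higher, among them Cdkn2c (log2 0.58) and Cdkn2d (0.82). Trp53 was lower (log2 -0.18), a call lost without F-low replicates 1 or 3 or naive replicate 4 (adjusted p = 0.0559 to 0.0923). Interferon-stimulated genes had 10 of 30 higher and 3 lower, beside 15.9% and 14.8% of all tested genes. The higher ones included Rsad2 (log2 1.78) and Oasl2 (1.72), which stood at 1.01 and 1.67 CPM in naive libraries. The fit of all 24 libraries called 2 of them higher. Receptors for dying cells and microbes were mixed. Of 20 efferocytosis genes 8 were higher and 4 lower, with Itgb3 (log2 3.37) and Axl (-0.49) as examples. Of 29 scavenger and pattern recognition receptors 9 were higher and 5 lower. Over all tested genes the shares were 15.9% higher and 14.8% lower.

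Genes that respond within minutes to a stimulus, cell handling included, were mostly not called or lower. Of 23, 7 were lower and 2 higher, at a median of -0.25. Egr1 had 173, 223, 231 and 549 CPM in naive, 89.2, 74.1 and 83.4 in exposed F-high and 89.5, 109, 94.8 and 75 in F-low libraries. Rhob fell from 468 ± 37 to 254 ± 38.5 CPM, with 219 ± 13.3 in exposed F-high libraries. Of 17 genes known to react to tissue dissociation, which share 15 with that list, 7 were lower and 2 higher, and their summed level was 9272 to 11448 CPM in naive, 8573 to 9171 in exposed F-high and 7526 to 9123 in F-low libraries. Whether handling differed between the groups was not tested.

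Markers of other cell types were looked at as whole lists, since a sort can carry other cells along. Over all tested genes, 15.9% were called higher and 14.8% lower. The calls in the T and NK, dendritic, epithelial and endothelial lists were near or below these shares. B cell markers were lower in 10 of 15, their sum running from 422 to 637 CPM in naive, 244 to 399 in exposed F-high and 318 to 452 in F-low libraries. Ighm had 274, 129.7, 184 and 125 CPM in naive and 88.6, 64.7, 137 and 49.5 in F-low libraries, ranges that overlap, and its call was lost without F-low replicates 2 or 4 or naive replicate 1 (adjusted p = 0.0585 to 0.0965). Ms4a1, which encodes CD20, had 6.57 ± 2.26 and 2.78 ± 0.796 CPM. Of the exposed F-high against the naive group, 4 of these 15 were lower. The fit of all 24 libraries called 2 of these 15 lower in the F-low group. T and NK cell markers were lower in 3 of 17, among them Cd3d (2.93 ± 1.03 to 0.854 ± 0.197 CPM), and higher in 1, Il7r, a receptor that some monocyte-derived cells also make. Il7r had 5.59, 10.02, 9.67 and 7.42 CPM in naive, 8.74, 11 and 10.9 in exposed F-high and 63.9, 51.6, 67.4 and 98.8 in F-low libraries, against a sum of the whole list of 31.4 to 63.5, 25.8 to 41.5 and 80.9 to 121.9. Dendritic cell markers were higher in 1 of 12 and lower in 2, and their sum was 2326 to 2510 CPM in naive and 1866 to 2279 in F-low libraries, of which Sirpa, a gene that macrophages share, made 2117 ± 103 and 1834 ± 161.

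Neutrophil markers were higher in 3 of 7 and lower in 1, at 62.8 to 87.0 CPM summed in naive and 92.8 to 117.9 in F-low libraries, while Ly6g, Camp, Ngp, Ltf, Elane and Mpo were too low to test. Eosinophil and basophil markers were higher in the 4 of 10 that passed the filter on low counts, Alox15, Ear6, Ccr3 and Prg2, at 3.88 to 9.87 CPM summed in naive and 26.4 to 69.6 in F-low libraries. The call of Prg2 was lost without F-low replicates 3 or 4 or naive replicates 2, 3 or 4 (adjusted p = 0.0601 to 0.167). Genes near the floor in naive libraries can pass the filter on low counts through their higher groups, so the shared direction carries little weight. The defining genes Epx and Il5ra were too low to test, as were Cpa3, Mcpt8, Fcer1a and Ms4a2. Their raw counts in naive and F-low libraries were, in that order, 0 and 1, 11 and 10, 3 and 5, 3 and 1, 1 and 1, and 4 and 0. Interstitial macrophage markers were higher in 4 of 10, at 11.1 to 22 against 28.3 to 34.2 CPM summed. Epithelial markers were higher in 2 of 14 and lower in 2, with 363 to 496 and 320 to 409 CPM summed. Of these Epcam was called lower, and Sftpc (0.01) was not called. Endothelial markers were higher in 2 of 11, Vwf and Cdh5, at 167 to 207 against 253 to 396 CPM summed, and fibroblast markers in 2 of 8, Col3a1 and Pdgfra, at 6.44 to 11.7 against 11.7 to 19.4 CPM summed, the call of Col3a1 lost without F-low replicates 1 or 4 or naive replicates 1, 2, 3 or 4 (adjusted p = 0.0515 to 0.0979). Cdh5 had a log2 fold change of 1.78, or 2.58 without naive replicate 1, and Pdgfra of 3.85, or 5.45 without naive replicate 4. Erythroid and platelet markers, 3 of 10 tested, were higher in Pf4 and lower in Hbb-bs, at 4.46 to 6.68 against 5.20 to 10.5 CPM summed, the call of Hbb-bs lost without F-low replicates 1, 2, 3 or 4 or naive replicates 2 or 3 (adjusted p = 0.0645 to 0.104). The part of these cells in the results was not tested.

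The exposed F-high libraries show how the distance divides, though the 2 steps share their libraries with each other and with the whole comparison and are not independent. Exposed F-high and F-low libraries of the same number deviated together, and the fit did not pair them. From naive to exposed F-high, 562 genes were called (4.12%), 430 higher (3.16%) and 132 lower (0.969%). Leaving out 1 library gave 223 to 532 calls, with 223 without exposed F-high replicate 4, 243 without its replicate 1, 344 without naive replicate 2 and 361 without naive replicate 3. With library size scaling alone that step had 302 genes higher and 296 lower. From exposed F-high to F-low, 1578 were called (11.6%), 858 higher (6.30%) and 720 lower (5.28%), and 1024 without exposed F-high replicate 2. With all 24 libraries the counts were 105 and 579. By the values of single genes, Apoe, Tfrc, Il7r and the C1q genes differed at the sort, with log2 values of 2.32, 2.00, 2.79 and 4.03 (C1qb) there and -0.30, 0.10, 0.31 and 0.60 at exposure, where none of these was called. Egr1 and Rhob differed at exposure, with -1.84 and -1.09, and neither was called at the sort, with 0.16 and 0.21. Arg1 (5.27 and 4.02), Chil3 (1.33 and 0.72), Ctsk (1.32 and 0.98) and Sqle (0.64 and 0.82) were called at exposure and again at the sort. Of the ER list 2 genes were higher at exposure and 14 at the sort, of the lysosomal list 11 and 9, and of the cholesterol list 10 and 18. Whether the steps differ in size was not tested.

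The same comparison in young mice, 8 to 12 weeks of age, rested on 8 other libraries and called 4729 genes (34.7%). The difference between old and young was tested as an interaction in the same fit and was called in 74 genes (0.543%), 18 with a larger log2 value in old mice (0.132%) and 56 with a smaller one (0.411%), and 1510 had an unadjusted p under 0.05. This count was not stable: it was 1 with all 24 libraries, 206 by DESeq2, 177 by limma voom, 219 without the filter on low counts, 180 with a replicate block, 45 with these 16 libraries alone, and 43 to 112 with 1 library left out. The counts furthest from 74 came without young naive replicates 2 (112), 3 and 4 (43 each), young asbestos Siglec F-low replicates 1 (49) and 2 (48), and old F-low replicate 3 (46).

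Among the genes with a smaller value in old mice, the insulin-degrading enzyme gene Ide had the smallest p. It had 93.5, 97, 106 and 97.9 CPM in old naive and 66.9, 72.6, 64.3 and 60.7 in old F-low libraries, a log2 fold change of -0.58 ± 0.06, and 62 and 97.4 CPM on average in young naive and F-low libraries, a difference of 0.65. The interaction was log2 -1.23 ± 0.09 (adjusted p = 2.01e-08). With all 24 libraries this call was lost, as were the age calls of all other named genes but Sbk2. Ecm1, a secreted matrix protein, rose in both ages, by 1.59 in old and 2.87 in young mice (-1.28 ± 0.17, adjusted p = 0.000401). Its old naive level of 71.3 CPM was above the young one of 14.5, and the F-low levels were 215 and 106. Sbk2, Lipn and Slc37a2 had interactions of -1.64 ± 0.19, -3.41 ± 0.45 and -1.14 ± 0.16. For Sbk2 the old value was 0.03, not called, and the young one 1.67. Mfge8, at 4.09 in old and 5.56 in young mice (-1.47 ± 0.25, adjusted p = 0.00444), also started from a higher naive level in old mice, 44.3 against 12.1 CPM. Pparg differed too, lower in old F-low libraries (-0.35) and higher in young ones (0.28) (-0.63 ± 0.13, adjusted p = 0.0245), a call lost without F-low replicate 3 or young F-low replicates 1 or 2 or young naive replicate 3 (adjusted p = 0.0547 to 0.0614). The lipid genes Abca1 (-0.96 ± 0.18), Scd1 (-1.58 ± 0.25) and Pltp (-0.71 ± 0.12) had smaller values in old mice as well.

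Among the genes with a larger value in old mice, Irf4, a transcription factor of the IL-4 response, led. It had 10.4, 16.2, 9.5 and 8.99 CPM in old naive and 43.5, 41.5, 31.2 and 43.1 in old F-low libraries, and 11.4 and 12.3 CPM on average in the young groups. The log2 fold changes were 1.82 and 0.10, with an interaction of 1.71 ± 0.24 (adjusted p = 0.000997), a call lost with all 24 libraries. Cish, a feedback inhibitor of cytokine signals, was 0.84 in old and -0.34 in young mice, and Slc7a1, an arginine carrier, 0.51 and -0.28. Rnf19b (0.64 ± 0.13) and Sik1 (1.27 ± 0.26) were further members, Sik1 lost without F-low replicate 3 or young naive replicate 4 (adjusted p = 0.0506 to 0.0521). C1qc reached 4.52 in old against 3.04 in young mice (1.48 ± 0.31, adjusted p = 0.0245), a call lost without naive replicate 4 or young naive replicate 3 (adjusted p = 0.0531 to 0.054). C1qa (1.14 ± 0.28, adjusted p = 0.0635) and C1qb (0.78 ± 0.27, 0.238) were not called. Arg1 (1.27 ± 0.62, adjusted p = 0.463), Spp1 (-1.05 ± 0.27, 0.0809), Fn1 (1.11 ± 0.29, 0.0803), Mmp12 (-2.28 ± 0.74, 0.197) and Csf1 (0.09 ± 0.35, 0.957) were not called for a difference by age, which does not show that they were equal.

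**Figure D5:**
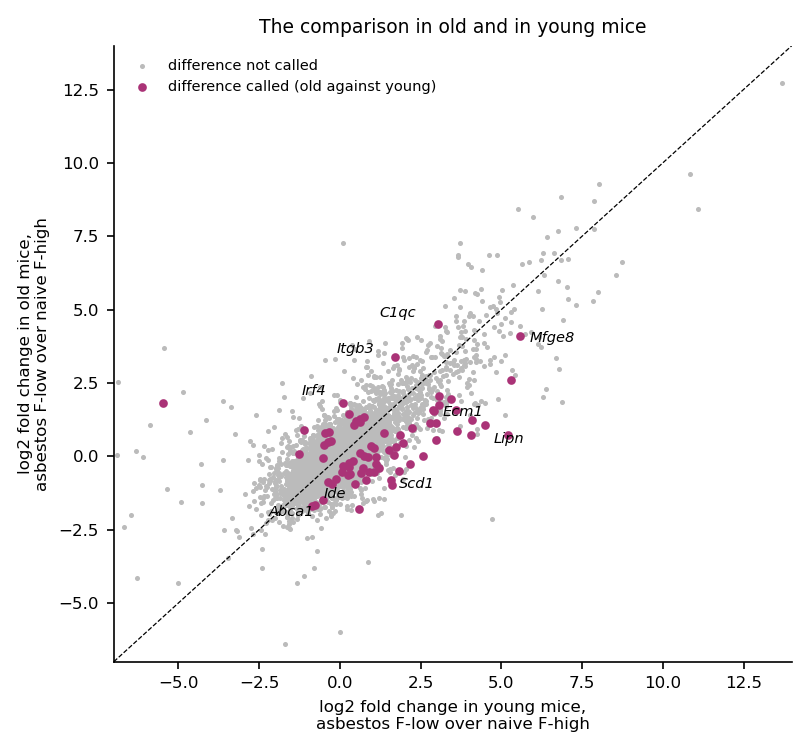
Log2 fold change of the comparison in young mice (horizontal) and old mice (vertical) for the 13629 tested genes, with the 74 genes whose difference was called in purple and a dashed line of equal change. More purple points lie below the line (56) than above it (18), Irf4 being above and Ide below.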

How the data were processed

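RNA was sequenced from sorted lung macrophages of 24 samples in 6 groups of 4. The submitters' processing notes name bcl2fastq 2.19.1, FastQC, Trimmomatic 0.36, STAR 2.6.0, HTSeq 0.11.2 and the build mm10. The deposited values are the authors' raw counts per gene, with no normalization. The library kit was a NEBNext Ultra kit with polyA selection, per the labels' protocols, and the strand setting of the counting is not given in the sources used here. Reads of overlapping and antisense genes can therefore not be told apart.

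Of 43430 gene IDs, 42462 carried a symbol and 968 did not. Positions are from GENCODE M21 (42546 IDs matched) and promoter sequences from RefSeq (GRCm38.p6). Motif shares over all promoters count promoters, while those of a list count genes with a match in any of their promoters. Genes were kept by filterByExpr (minimum count 10, minimum total 15), scaled by TMM and fitted with edgeR 4.0.16 (R 4.3.3) by its quasi-likelihood test, with 6 group terms over 22 libraries. A gene near the floor in a group can pass this filter through its higher groups, which holds for members of any list. Genes were called at a Benjamini-Hochberg adjusted p under 0.05 over all 13629 genes. SE is the log2 fold change divided by the root of F. CPM are counts scaled to a common effective library size, given as mean ± SD. The fit was tested on simulated counts. DESeq2 1.42.0 and limma 3.58.1 were alternatives, with other scalings, filters, library sets and left-out libraries. Scaling by library size alone and by upper quartile was added after the data were seen.

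Genes are named by a rule: 11 fixed genes, 10 higher and 10 lower called genes ranked by p with non-overlapping groups and a log2 change of at least 1, 5 higher and 5 lower called genes ranked by fold with at least 10 CPM in each library of the higher group, up to 4 called members of smallest p per list and direction, the most abundant or defining members of a list, and 5 genes a side of the age difference ranked by p. Predicted gene models were counted but not named, except as list members. Some genes that meet this rule are not reported here. Further list members were named after their values were seen. The comparison and the lists were chosen with earlier results of these data known. Same-numbered naive and F-low libraries did not deviate together (r of deviations -0.081 to 0.052), so the numbers do not pair them. Exposed F-high and F-low libraries of the same number did (0.150 to 0.205), a sign of pairing from the data alone. The main fit did not pair them. A replicate block moved the count of genes called between them from 1578 to 1954. That block gave each replicate number a term shared by all 6 groups, young and old. It was therefore not a paired test of exposed F-high against F-low libraries.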

Additional observations from a re-analysis of the deposited data

Results flagged for a closer look

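Of 412 groups of 4 old naive or F-low libraries, 1 for each of 206 named genes and group, 25 held a library whose gap to the nearest other one passed Dixon's critical value for 4 libraries, set as a share of the group's range. Chance alone would give about 1 in 20 groups.

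Naive replicate 1 stood apart in Pparg (244 CPM, others 224 to 225), Prg2 (0.496 CPM, others 0.0597 to 0.126) and Cdh5 (2.67 CPM, others 0.586 to 0.776). Naive replicate 2 stood apart in Ccl17 (3.4 CPM, others 0.704 to 1.05) and Mmp12 (165 CPM, others 13.4 to 27.1). Naive replicate 4 stood apart in Car4 (821 CPM, others 381 to 418), Lipn (6.29 CPM, others 4.18 to 4.51), Slc7a11 (40.3 CPM, others 13.3 to 15.5), Asns (8.99 CPM, others 4.18 to 4.81), Egr1 (549 CPM, others 173 to 231), Atf5 (42.8 CPM, others 26.9 to 28.6), Ear6 (7.42 CPM, others 2.09 to 2.98) and Trp53i11 (51.3 CPM, others 94.5 to 100.3).

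F-low replicate 1 stood apart in Apoe (254 CPM, others 354 to 373), Igfbp6 (15.7 CPM, others 12.1 to 12.3), Chil4 (13.6 CPM, others 11.2 to 11.4) and Fbp1 (418 CPM, others 330.3 to 343). F-low replicate 2 stood apart in Creld2 (71.7 CPM, others 80.8 to 82.7), Marco (649 CPM, others 266 to 325), Atf5 (46.4 CPM, others 57.5 to 58.8), Csf2ra (1215 CPM, others 971 to 992) and Fabp4 (346 CPM, others 206 to 223). F-low replicate 3 stood apart in Cd36 (791 CPM, others 1038 to 1088), Irf4 (31.2 CPM, others 41.5 to 43.5) and Plk1 (18.4 CPM, others 13.1 to 14).

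The comparison differed between old and young mice in 74 genes by the interaction term. Of the genes named here, the log2 difference was above 0 for Irf4 (1.71), Itgb3 (1.68), C1qc (1.48), Sik1 (1.27), Cish (1.19), Slc7a1 (0.79), Rnf19b (0.64). It was below 0 for Lipn (-3.41), Sbk2 (-1.64), Slc40a1 (-1.60), Scd1 (-1.58), Mfge8 (-1.47), Ecm1 (-1.28), Ide (-1.23), Slc37a2 (-1.14), Abca1 (-0.96), Acot1 (-0.87), Cd101 (-0.84), Pltp (-0.71), Pparg (-0.63), Nr1h3 (-0.59). With all 24 libraries 1 gene was called.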

How the results depend on the processing

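The count of 4181 genes became 1418 with all 24 libraries and 784 when the fold change was tested against 1.5, and lay between 3326 and 3999 with 1 of the 8 libraries left out. All 1418 were also called, in the same direction, in the fit of 22 libraries. With a replicate block, where the number is only a shared label, 4689 genes were called. The age difference of 74 genes became 1 with all 24 libraries, 206 by DESeq2, 177 by limma voom, 219 without a filter on low counts, 180 with the replicate block and 45 with the 16 libraries alone, and lay between 43 and 112 with a library left out. The step from exposed F-high to F-low went from 1578 genes to 579 with all 24 libraries, to 1954 with the replicate block (1554 of the 1578 among them), and to between 1024 and 1637 with a library left out. The step from naive to exposed F-high went from 562 to 105 with all 24 libraries, to 725 with the replicate block, and to between 223 and 532 with a library left out (223 and 243 without exposed F-high replicates 4 and 1, 344 and 361 without naive replicates 2 and 3). The cause of these changes was not tested.

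Of 206 genes named with a value, 186 were called, and 105 of these kept call and direction in all alternatives run. The other 81 lost the call in at least 1, and 0 reversed. For some of these, such as Ctsd, Xbp1, Dnajc3, Abcg1 and Cd74, the only loss was in the test against a fold change of 1.5. That test asks for a larger change and not for any difference. Calls lost with all 24 libraries were those of Itgb2, Pparg, Car4, Nr1h3, Axl, Cd33, Adgre1, Ctsa, Psmb6, Hsp90b1, Rsad2, Cyc1, Ehhadh, Creld2, C3, Tnf, Csf1r, Ms4a1, Lipn, Tcf7l2, Casp1, Slc40a1, Col3a1, Lamc1, Prg2, Siglec1, Pf4, Cxcl9, Oasl2, Ifi30, Cdh5, Aars, Hyou1, Slc37a2, Ptgs2, Trib3, Mitf, H2-Aa, Scd1, Sirpa, Ctss, Tgfb2, Ppp1r15a, Hbb-bs, Cx3cr1, Klf2, Trp53, Alox5ap, Ighm and Ctsf, and all the age differences of named genes but that of Sbk2. Library size scaling alone also lost C3, Ifi30, Aars, Mitf, Ctss, Ppp1r15a and the age difference of Cd101. Scaling by DESeq2 size factors lost Casp1, limma voom lost Tnf, Prg2, Hbb-bs and Hspa1b, the fit without a filter lost Aars and Trp53, and the 8 libraries alone lost C3, Tnf, Slc40a1, Scd1, Sirpa, Trp53 and Ctsf. Ddit3 was gained by limma voom (adjusted p = 0.0362) and without a filter (0.0391), and Marco without a filter (0.0263). Over the lists, the fit of all 24 libraries took the called higher members from 27 to 15 for lysosomal genes, 14 to 4 for the V-ATPase, 19 to 8 for glycolysis, 23 to 2 for oxidative phosphorylation, 22 to 9 for ER genes, 10 to 2 for interferon-stimulated genes and 6 to 1 for the proteasome.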
